A study of Mus musculus with 6 samples.

Results

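Forkhead factors are transcription factors that share the winged-helix DNA-binding domain called the forkhead box. The 8 genes described here, Foxp1, Foxp2, Foxp4, Foxf2, Foxc1, Foxc2, Foxd1 and Foxd2, were taken by name as forkhead genes of facial mesenchyme, out of 23443 gene symbols in the RNA-seq tables. The libraries were made from mouse palatal shelf cells sorted for the red fluorescence that an Osr2RFP allele gives, on a mixed background. Osr2 encodes a zinc finger factor needed for palatal shelf growth, and the study asked how its loss alters these cells. Mutants were Osr2RFP/- and controls Osr2RFP/+, so all cells carried 1 fluorescent (RFP) allele and the controls kept 1 working copy. At embryonic day 13.5 (E13.5) there were 2 mutant and 2 control libraries, and at E12.5 there was 1 mutant and 1 control library. The labels do not say whether each library came from 1 embryo, so p-values measure the spread between these libraries, which may be technical.

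The FoxP proteins pair with each other through a leucine zipper and act mostly as repressors, and in the mouse skeleton Foxp1, Foxp2 and Foxp4 together restrain bone formation by binding Runx2. Foxf2 and its paralog Foxf1 work downstream of Hedgehog signalling in palatal mesenchyme, and mice without Foxf2 have cleft palate. Foxc1 and Foxc2 act in head mesenchyme, skull bone, eye and vessels, and Foxd1 and Foxd2 are expressed in facial and kidney stroma.

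Each library gave an estimated 14097000 to 17965000 fragments and 10281 to 10498 genes at 1 FPKM or more (mapped fragments per transcript length and sequencing depth, the unit of the deposited tables). Osr2 itself was at 68.5 and 88.4 FPKM in E13.5 mutants against 138.3 and 151.7 FPKM in E13.5 controls, and at 162.8 FPKM in the E12.5 mutant against 215.1 FPKM in the E12.5 control. The E13.5 difference (-0.89 on the log2(FPKM + 1) scale) passed at a limma adjusted p of 0.0409, and the call was kept in 8 of 16 alternatives. All 10 markers of palatal mesenchyme had a mean above 1 FPKM, the lowest being Msx1 at 1.75 FPKM, and they summed to 484 to 597 FPKM. The sum hides single markers whose E13.5 libraries separated by genotype, some by a small gap, described here without a test. At E13.5 both mutants lay below both controls for Osr1, Shox2, Meox2, Msx1 and Pdgfra (13.2% of all tested genes did). Both lay above for Twist1 and Prrx2 (24.8% of all tested genes did), and Prrx1, Tbx22 and Barx1 overlapped. The markers of oral epithelium, endothelium, leukocytes, glia and skeletal muscle summed to at most 5.47 FPKM in any library. Neuron markers summed to 79.5 and 90.6 FPKM in E13.5 mutants against 54.4 and 50.3 FPKM in E13.5 controls, and to 43.5 FPKM in the E12.5 mutant against 33.7 FPKM in the E12.5 control. Nearly all of that came from Gap43, Nefl and Nefm, while the other 5 of the 8 neuron markers had means under 1 FPKM. Pericyte and smooth muscle markers summed to 9.84 to 16.3 FPKM. Erythroid markers summed to 428 and 236 FPKM in E13.5 mutants against 537 and 462 FPKM in E13.5 controls, and to 615 FPKM in the E12.5 mutant against 582 FPKM in the E12.5 control. The labels give the title number 3047 to E13.5 mutant replicate 1 and 3048 to the other E13.5 libraries, without saying what it stands for. Xist, which silences 1 X chromosome in females, was at 138 FPKM in E13.5 mutant replicate 2, at 129 FPKM in the E12.5 mutant and at 141 FPKM in the E12.5 control, and below 0.1 FPKM in the other 3 libraries. Those 3 held the Y-linked Ddx3y at 3.56 to 3.97 FPKM, and the Xist-positive libraries held it below 0.1 FPKM.

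All 8 genes reached 1 FPKM in at least 2 libraries and were tested. Foxf2 was the most abundant, with a mean of 73.1 FPKM over the 6 libraries (range 64.4 to 89.3), above 97.2% of the 10799 genes tested. It was also the highest of the 44 forkhead genes examined. Foxp4 followed at 16.9 FPKM (12.4 to 23.7), Foxd1 at 14.6 (9.45 to 19.7), Foxp1 at 9.04 (4.36 to 16.8), Foxd2 at 6.30 (3.99 to 9.04) and Foxp2 at 4.05 (2.77 to 5.86). Foxc2 at 1.51 FPKM (1.11 to 1.99) and Foxc1 at 1.45 (0.903 to 2.00) were the lowest. Foxf2 stood clear of all the others in every library, and both Foxc genes stood below the other 6 genes, but every other pair of neighbours in this order had overlapping ranges. The estimated fragments behind these levels ran from 120 for Foxc2 in 1 control to 8136 for Foxf2, so the Foxc values are the least precise.

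**Figure D1:**
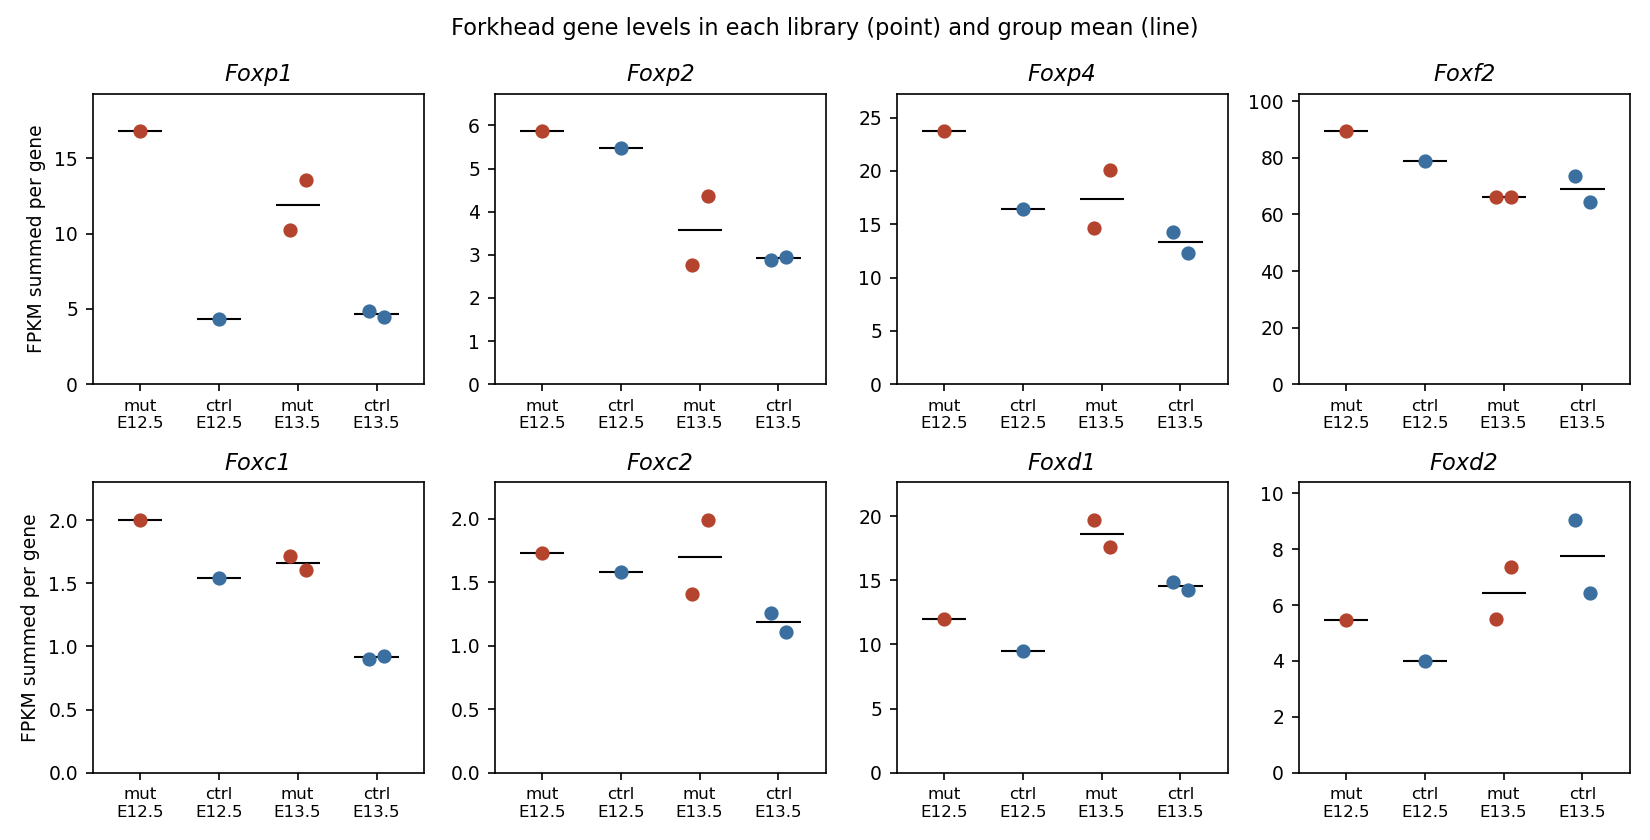
Level of each of the 8 forkhead genes (FPKM summed over transcripts, vertical axis from 0) in E12.5 and E13.5 mutants (red) and controls (blue), with 1 point per library and a line at the group mean. Foxp1 is at 10.2 FPKM or more in all 3 mutant libraries and at 4.84 FPKM or less in all 3 controls.

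Foxp1 was the only one of the 8 genes whose level differed between genotypes past the threshold. It had 10.2 and 13.5 FPKM in E13.5 mutants, against 4.84 and 4.49 FPKM in E13.5 controls. The E12.5 mutant library held 16.8 FPKM, against 4.36 FPKM in the control. Every mutant library lay above every control library, and the 3 controls were close to each other across the ages. At E13.5 Foxp1 rose to 11.9 ± 2.33 FPKM in mutants, against 4.66 ± 0.246 FPKM in controls (SD, n = 2 each). This was a difference of 1.17 on the log2(FPKM + 1) scale, or 2.26-fold in FPKM + 1 (SE 0.148, limma adjusted p = 0.00696). Of all genes tested at E13.5, 1.29% passed the threshold of 0.05 in either direction and 0.852% passed it as higher in mutants and 0.435% as lower. In such bulk samples, more cells that express Foxp1 and more Foxp1 RNA per cell cannot be told apart.

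With each E13.5 library left out in turn, leaving 1 in its group, the Foxp1 difference was 0.99 to 1.36. The E12.5 libraries do not enter this difference, which stayed at 1.17 without either of them. Without E13.5 mutant replicate 1, which leaves only libraries of title number 3048 at that age, it was 1.36. Without E13.5 mutant replicate 2, the E13.5 library with Xist, it was 0.99. The call was lost when all 23418 genes were tested with no filter on low values (limma adjusted p = 0.494), a fit in which 5 genes passed in all. The neuron markers Gap43, Nefl and Nefm were also higher in mutants than in controls of the same age. The other 5 neuron markers, with means under 1 FPKM, were mixed. Elavl4 was higher in mutants at both ages, while Tubb3 had 0.294 FPKM in the E12.5 mutant against 0.618 FPKM in the control and overlapped at E13.5. Summed erythroid markers were lower in mutants at E13.5. The part of the neuron or erythroid markers in the Foxp1 result was not tested.

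The 3 RefSeq transcripts listed for Foxp1 span 98925342 to 99435345 on the minus strand of chromosome 6 (GRCm38, mm10) and have different starts. NM_053202 has the outermost start of the 3, with 19 exons and a coding sequence of 705 codons. NM_001197321 starts 168.8 kb further in, inside an intron with 2 exons of NM_053202 upstream of it. NM_001197322 starts 407.0 kb further in, inside an intron with 5 exons upstream, and has 15 exons and a shorter coding sequence of 576 codons. Exons and codons were counted in transcripts of another annotation, GENCODE, matched to these RefSeq names. The GENCODE match of NM_001197322 starts at 99028258, while the RefSeq start is 99028298. The RefSeq windows around the inner starts (build GRCm38.p6, 250 bases before to 50 bases after each start, minus strand) are shown. No window was matched to the start of NM_053202, so CpG content and RNA level cannot be compared over all 3 starts. A further Foxp1 window, at a start at 99520993 that none of the 3 transcripts uses, held 13 CpG and is not shown. Capitals mark CpG dinucleotides.
NM_001197322, chr6:99028249-99028548: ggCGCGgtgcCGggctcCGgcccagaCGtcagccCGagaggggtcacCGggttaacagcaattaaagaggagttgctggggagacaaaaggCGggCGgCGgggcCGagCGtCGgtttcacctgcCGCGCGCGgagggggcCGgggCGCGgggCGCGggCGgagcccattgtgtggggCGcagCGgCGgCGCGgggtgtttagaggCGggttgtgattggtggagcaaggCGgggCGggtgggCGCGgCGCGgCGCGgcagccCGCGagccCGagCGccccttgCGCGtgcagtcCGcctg
NM_001197321, chr6:99266466-99266765: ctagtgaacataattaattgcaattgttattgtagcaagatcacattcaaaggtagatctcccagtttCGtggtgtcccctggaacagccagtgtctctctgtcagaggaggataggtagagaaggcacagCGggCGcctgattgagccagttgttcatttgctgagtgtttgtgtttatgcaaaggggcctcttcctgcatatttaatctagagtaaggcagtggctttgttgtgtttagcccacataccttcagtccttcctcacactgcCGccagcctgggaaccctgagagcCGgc
The first window holds 44 CpG and 75.3% G+C, more CpG than 97.8% of the 32817 promoter windows of the same length. The second holds 5 CpG and 48.7% G+C, against a median over all windows of 7 CpG. The forkhead consensus GTAAACA, searched on both strands, is in neither window, and 3.65% of all windows hold it. A missing match says only that these letters are not in these windows.

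Both main Foxp1 transcripts were higher in the mutants. The internally started NM_001197322 had 4.76 and 6.84 FPKM in E13.5 mutants, against 2.09 and 1.99 FPKM in E13.5 controls, and 9.41 FPKM in the E12.5 mutant, against 1.98 FPKM in the E12.5 control. The outermost NM_053202 had 5.28 and 6.53 FPKM in E13.5 mutants, against 2.75 and 2.00 FPKM in E13.5 controls, and 6.65 FPKM in the E12.5 mutant, against 2.17 FPKM in the E12.5 control. No mutant library overlapped a control library for either transcript. At E13.5 their differences were 1.14 and 1.04 on the log2(FPKM + 1) scale, described without a test, since transcripts with shared exons are split by estimation. NM_001197321 had at most 0.715 FPKM in any library. The share of Foxp1 FPKM on NM_001197322 was 56.1% in the E12.5 mutant, against 45.3% in the E12.5 control, and 48.6% in E13.5 mutants, against 43.8% in E13.5 controls (means of 2 libraries each).

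**Figure D2:**
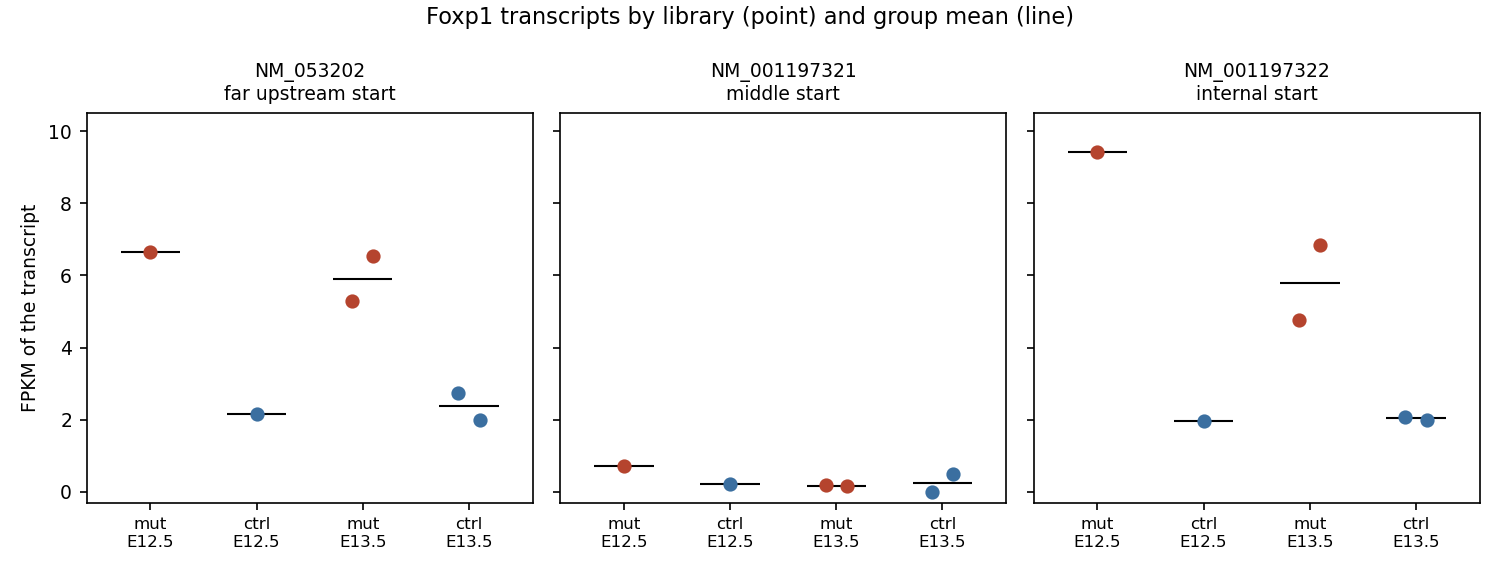
FPKM (vertical axis) of the 3 listed Foxp1 transcripts in each library, mutants red and controls blue, with lines at group means. NM_053202 and NM_001197322 are higher in every mutant than in every control, and NM_001197321 stays at or below 0.715 FPKM.

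Foxp4, a partner of Foxp1, had 14.6 and 20.1 FPKM in E13.5 mutants, against 14.3 and 12.4 FPKM in E13.5 controls. In the E12.5 mutant the level was 23.7 FPKM, against 16.4 FPKM in the control. The E13.5 groups did not overlap, but mutant replicate 1 was close to control replicate 1, and the difference of 0.35 (SE 0.165) did not pass (limma adjusted p = 0.593). Foxp2, a further FoxP factor known for its role in vocal learning circuits, had 2.77 and 4.36 FPKM in E13.5 mutants, against 2.89 and 2.95 FPKM in E13.5 controls. At E12.5 its level was 5.86 FPKM in the mutant and 5.48 FPKM in the control. The E13.5 groups overlapped (difference 0.20, SE 0.167, limma adjusted p = 0.842). The assignment to transcripts was unsettled for both genes. Of the 3 listed Foxp2 transcripts, NM_053242 held 59.2% to 94.0% of the gene's FPKM, and for Foxp4 NM_001110824 held 4.62% to 33.5%.

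Foxp1 took a larger share of FoxP expression in every mutant library than in any control. It made 36.2% of the summed FPKM of Foxp1, Foxp2 and Foxp4 in the E12.5 mutant, against 16.6% in the E12.5 control. At E13.5 its share was 36.3 ± 1.02% in mutants and 22.3 ± 0.502% in controls (SD, n = 2 each). The mutant shares lay within 35.6% to 37.0% at both ages, while the control shares ran from 16.6% to 22.7%, and the groups did not overlap. Foxp4 remained the most abundant of the 3 in every library, at 51.2% to 52.9% in mutants and 62.4% to 64.9% in controls. These shares rest on the same Foxp1 values and are given as a description with no test.

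**Figure D3:**
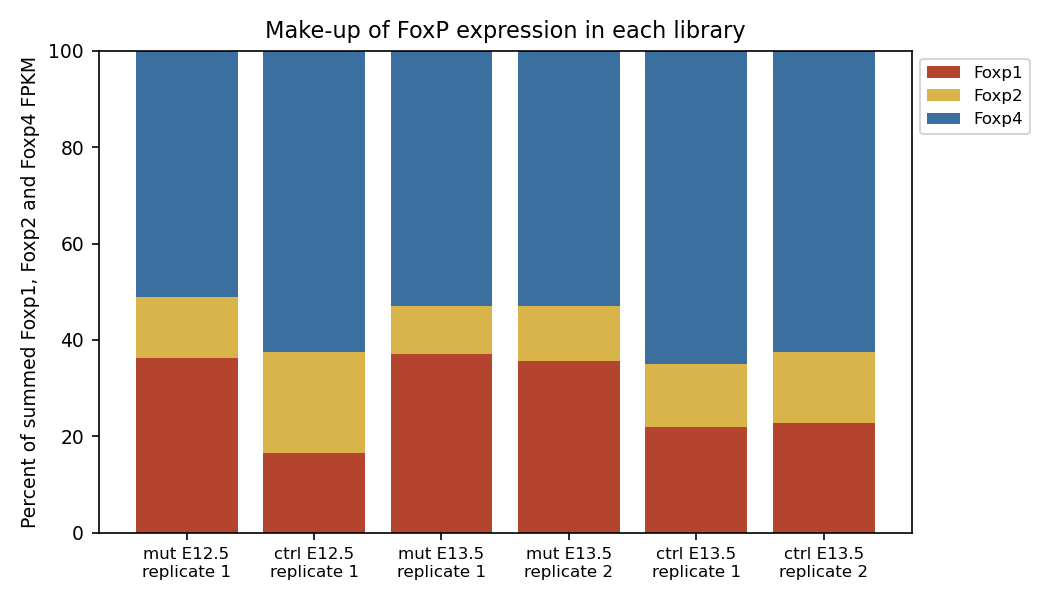
Percent of the summed FPKM of Foxp1, Foxp2 and Foxp4 (vertical axis) contributed by each gene in each of the 6 libraries. Foxp1 takes 35.6% to 37.0% in the 3 mutants and 16.6% to 22.7% in the 3 controls.

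Foxf2 did not pass the test between genotypes. It had 66.3 and 66.1 FPKM in E13.5 mutants, against 73.5 and 64.4 FPKM in E13.5 controls, so the mutants lay between the controls (difference -0.05, SE 0.141, limma adjusted p = 0.948). The E12.5 mutant had 89.3 FPKM, against 79.0 FPKM in the control. The E12.5 mutant was higher by 0.17 on the log2(FPKM + 1) scale, while the median of all tested genes was higher by 0.18 in the same pair (-0.06 after scaling to the same sum). Its paralog Foxf1, chosen as the nearest relative, was next in abundance among forkhead genes. Foxf1 had 25.6 and 34.2 FPKM in E13.5 mutants, against 30.2 and 29.1 FPKM in E13.5 controls, and 59.3 FPKM in the E12.5 mutant, against 41.3 FPKM in the E12.5 control. Foxf2 made 60.1% to 72.1% of the summed Foxf FPKM in mutants and 65.7% to 70.9% in controls.

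Foxc1 had the largest E13.5 difference after Foxp1, at a low level. It had 1.72 and 1.61 FPKM in E13.5 mutants, against 0.903 and 0.926 FPKM in E13.5 controls, and the groups were well apart. In the E12.5 mutant it stood at 2.00 FPKM, against 1.54 FPKM in the control. The E13.5 difference was 0.48 (SE 0.129) and did not pass (limma adjusted p = 0.167). An estimated 278 and 224 fragments in E13.5 mutants stood against 122 and 153 in E13.5 controls. With a pseudocount of 0.1 in place of 1 the difference was 0.80, since the pseudocount compresses low levels, and it still did not pass (limma adjusted p = 0.163). Foxc2 had 1.41 and 1.99 FPKM in E13.5 mutants, against 1.26 and 1.11 FPKM in E13.5 controls, and 1.73 FPKM in the E12.5 mutant, against 1.58 FPKM in the E12.5 control (E13.5 difference 0.30, SE 0.149, limma adjusted p = 0.627). Both Foxc genes are also known from vessels. Endothelial markers summed to 1.62 and 1.41 FPKM in E13.5 mutants, against 0.945 and 1.64 FPKM in E13.5 controls. At E12.5 they summed to 0.904 FPKM in the mutant, against 1.21 FPKM in the control. All 10 markers had means under 1 FPKM, and the part of vessel cells in the Foxc levels was not tested.

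Foxd1 had 19.7 and 17.6 FPKM in E13.5 mutants, against 14.8 and 14.3 FPKM in E13.5 controls, and the groups did not overlap. The E12.5 mutant gave 12 FPKM, against 9.45 FPKM in the control. The difference at E13.5 was 0.34 (SE 0.127, limma adjusted p = 0.419) and did not pass. Foxd2 had 5.51 and 7.34 FPKM in E13.5 mutants, against 9.04 and 6.44 FPKM in E13.5 controls, and these groups overlapped (difference -0.23, SE 0.177, limma adjusted p = 0.824). At E12.5 Foxd2 had 5.45 FPKM in the mutant, against 3.99 FPKM in the control, the opposite order.

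**Figure D4:**
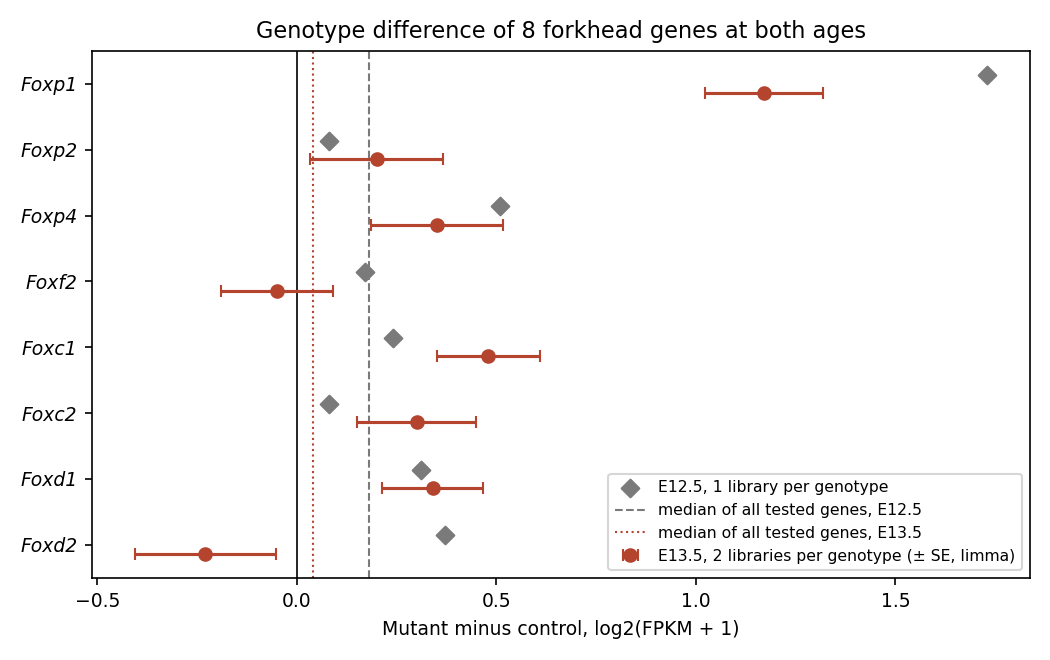
Mutant minus control difference in log2(FPKM + 1) for each of the 8 genes at E12.5 (grey diamonds, single libraries) and E13.5 (red points with the limma SE), with the median of all tested genes as vertical lines. Foxp1 stands at 1.73 and 1.17, and the other 7 genes lie between -0.23 and 0.51.

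In all, 5 of the 8 genes (Foxp1, Foxp4, Foxc1, Foxc2 and Foxd1) had both E13.5 mutants above both controls and none had both below, while 24.8% of all tested genes had mutants above and 13.2% had them below. The median difference of the 8 genes was 0.32 at E13.5 and 0.28 at E12.5, beside 0.04 and 0.18 for all tested genes. At E12.5 all 8 were higher in the mutant library, but relative to the median gene 5 were. Foxp1 was the only one past 1 on the log2 scale at that age, with 1.73 before and 1.55 after subtracting the median gene. Of the 6092 genes at 5 FPKM or more in either E12.5 library, 0.673% were higher by at least 1 and 0.263% lower by at least 1. Foxp1 entered that set only through the mutant library, with 16.8 FPKM there and 4.36 FPKM in the control. After scaling the libraries to the same sum, Foxp2, Foxf2 and Foxc2 were lower in the E12.5 mutant (-0.17, -0.12 and -0.10).

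With both ages in 1 additive fit of 3 mutant and 3 control libraries, which reuses the E13.5 libraries, Foxp1 was again the only one of the 8 past the threshold (1.36, SE 0.143, limma adjusted p = 0.00247), where 1.44% of all genes passed, 1.08% as higher in mutants and 0.361% as lower. None of the 8 passed the test of whether the genotype difference changed with age, which 0.037% of all genes passed by limma (0.0278% with a positive and 0.00926% with a negative value). Foxp1 and Foxd2 had the largest such values, -0.55 and -0.60 (unadjusted p = 0.0589 and 0.0805 by limma), and no member had an unadjusted p under 0.05.

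Foxp1, the gene past the threshold between genotypes, did not pass for age. Foxd1 rose and Foxp2 fell between E12.5 and E13.5, the only 2 of the 8 past the threshold in the additive fit, where 16.7% of all genes passed, 7.45% as higher at E13.5 and 9.26% as lower. For Foxd1 the 4 E13.5 libraries ran from 14.3 to 19.7 FPKM, with both E12.5 libraries at 12 and 9.45 FPKM, and there was no overlap (0.58, SE 0.106, limma adjusted p = 0.00738). For Foxp2 the E13.5 libraries ran from 2.77 to 4.36 FPKM, with both E12.5 libraries at 5.86 and 5.48 FPKM, again without overlap (-0.67, SE 0.14, limma adjusted p = 0.0133). Both calls were lost when either E12.5 library was left out, with limma adjusted p of 0.0774 and 0.0551 for Foxd1 and 0.088 and 0.102 for Foxp2 (without the mutant and without the control). Foxf2 (64.4 to 73.5 FPKM at E13.5, 89.3 and 79.0 at E12.5) and Foxd2 (5.51 to 9.04 at E13.5, 5.45 and 3.99 at E12.5) also had no overlap between the ages, but did not pass. The share of all genes without such overlap was not counted. Both E12.5 libraries share the title number 2962, so age and whatever that number marks cannot be told apart. Both E12.5 libraries were also Xist-positive and 3 of the 4 E13.5 libraries Ddx3y-positive, so age nearly coincided with the sex these genes mark, and its part in the age differences was not tested.

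In controls alone, with 2 libraries at E13.5 and 1 at E12.5, none of the 8 genes passed by limma, where 4.23% of all genes did, 3.47% as higher at E13.5 and 0.759% as lower. The differences were 0.57 for Foxd1, 0.79 for Foxd2 and -0.73 for Foxp2 (limma adjusted p = 0.0768, 0.0782 and 0.0875, with unadjusted p = 0.00498, 0.00513 and 0.00629). Foxd2 had 9.04 and 6.44 FPKM in E13.5 controls, against 3.99 FPKM in the E12.5 control, but 5.51 and 7.34 FPKM in E13.5 mutants, against 5.45 FPKM in the E12.5 mutant. Its additive age difference was 0.49 (limma adjusted p = 0.0833), with adjusted p = 0.0398 after scaling to the same sum and adjusted p = 0.0496 after upper quartile scaling. Foxp1 had an age difference of 0.08 in controls (limma adjusted p = 0.860), with 4.84 and 4.49 FPKM in E13.5 controls, against 4.36 FPKM in the E12.5 control. In mutants it had 10.2 and 13.5 FPKM at E13.5, against 16.8 FPKM at E12.5, and the additive fit over both genotypes gave -0.20 (limma adjusted p = 0.388). In the same additive fit Foxf2, Foxp4 and Foxc1 had age differences of -0.31, -0.36 and -0.29, none of which passed (limma adjusted p = 0.125, 0.105 and 0.108).

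**Figure D5:**
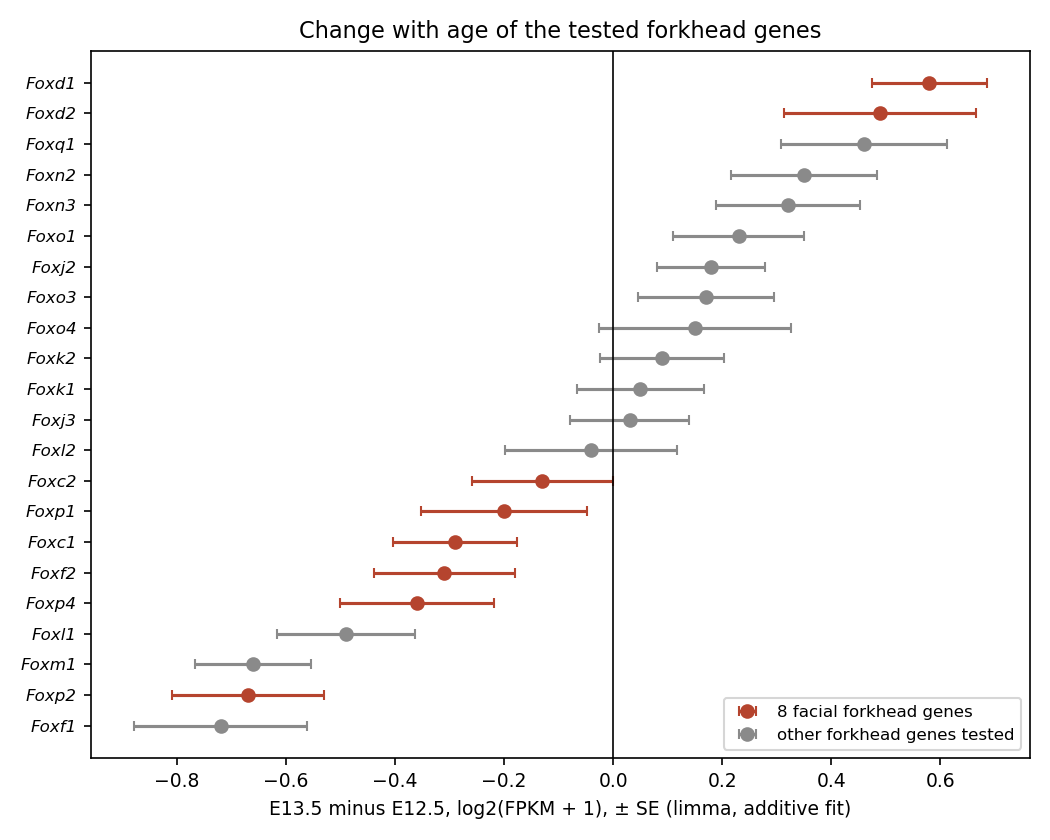
E13.5 minus E12.5 difference in log2(FPKM + 1) with the limma SE (horizontal axis) for the 22 forkhead genes tested, with the 8 facial forkhead genes in red and the others in grey. Foxd1 is the highest at 0.58, and Foxp2 at -0.67 and Foxf1 at -0.72 are the lowest.

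Of the 36 other forkhead genes listed, 14 were tested, and none passed between genotypes at E13.5 or across both ages by limma. Of all genes 1.29% passed at E13.5 and 1.44% across both ages. Their median difference at E13.5 was 0.10 (range -0.52 to 0.57). With age, 3 of the 14 fell and none rose, beside 9.26% of all genes lower and 7.45% higher at E13.5. Foxf1 fell (-0.72, SE 0.159, limma adjusted p = 0.0159), as did Foxm1, which drives the genes of mitosis (-0.66, adjusted p = 0.00406), and Foxl1, a mesenchymal factor (-0.49, adjusted p = 0.0288). Without the E12.5 mutant library Foxf1 and Foxl1 no longer passed, and Foxl1 also did not without E13.5 mutant replicate 1. With no filter on low values, Foxf1, Foxm1 and Foxl1 all lost the call. Outside the 8 genes, Foxo3, Foxn3 and Foxm1 had means of 23.5, 22.8 and 22.2 FPKM, and Foxk1, Foxk2, Foxj2 and Foxj3 of 11.5, 11.1, 8.18 and 7.91 FPKM. Of the 44 forkhead genes, 16 had means under 0.1 FPKM.

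Several of the genes are neighbours on the chromosome. On chromosome 13, Foxf2 (31625816 to 31631406) lies 64.8 kb from Foxq1 and 175.2 kb from Foxc1 (31806646 to 31810635), and in this stretch the mean levels were 73.1 FPKM for Foxf2, 1.06 for Foxq1 and 1.45 for Foxc1. On chromosome 8, Foxc2 (121116171 to 121118894) lies 8.8 kb from Foxl1, with Foxf1 in the same cluster, and the mean levels were 1.51 FPKM for Foxc2, 3.81 for Foxl1 and 36.6 for Foxf1. In both clusters the Foxf gene was thus far more abundant than the Foxc gene beside it. None of the loci of the 8 genes overlapped another symbol in the tables. RefSeq promoter windows were matched for 6 of the 8 genes, and those of Foxp4, Foxf2, Foxc1, Foxd1 and Foxd2 held 33, 27, 32, 15 and 26 CpG, all above the median of 7.

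Among genes with a mean of at least 5 FPKM, those whose log2(FPKM + 1) followed Foxp1 most closely over the 6 libraries were Sulf2, Srek1ip1, Col1a2, Zhx1 and Mrps2 (Pearson r of 0.998, 0.996, 0.995, 0.99 and 0.989). For Foxd1 they were Ppp1r3b, Aebp1 and Myc (0.997, 0.994 and 0.989), and for Foxp2 they were Top2a, Cenpe and Kif20b (0.993, 0.993 and 0.992). These are the highest of the correlations with 5444 or 5445 genes over only 6 libraries that share depth and scaling, and they are a description with no test.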

How the data were processed

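The deposited tables hold 31579 RefSeq transcript lines per library, with FPKM and a coverage signal computed by the authors with Cufflinks, per the file headers. The submitters' processing notes name the mm10 and mm9 builds together with Bowtie 0.12.7 and TopHat 1.4.1, and transcript starts matched GRCm38 (mm10) RefSeq starts. For Cufflinks, no version is given in the sources used here. The tables hold no read counts or confidence bounds, and fragments were estimated from the deposited coverage times length over 150 bases (2 reads of 75 bases). FPKM was summed per symbol, the 25 symbols with a failed estimate were left out, and genes with at least 1 FPKM in at least 2 libraries were tested on log2(FPKM + 1), which understates changes of low genes. Tests were two-sided limma 3.58.1 tests with an intensity trend (R 4.3.3), with Benjamini-Hochberg adjustment over 10799 genes and a threshold of 0.05. Simulated data with independent noise in each library were used to check the E13.5 genotype test only. They held no shared effect of title number or sex. A 4-group fit has 2 residual degrees of freedom and assumes the lone E12.5 libraries vary like the others, and the additive fit has 3. Named genes were Osr2, the 8 genes, other forkhead genes at 5 FPKM or past the threshold, and the most similar genes. Foxq1 and some markers were named after their values were seen. 1 gene of the co-repressor list is not reported here. The genes and lists were chosen with earlier results of these data known. Alternatives changed the pseudocount, filter, scaling, trend, libraries and block.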

Additional observations from a re-analysis of the deposited data

How the results depend on the processing

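The titles share a first number within each age (2962 at E12.5, 3048 for 3 of the 4 E13.5 libraries), whose meaning the labels do not give. With it as a replicate block, added after seeing the data, 61 genes passed across both ages and Foxp1 stayed the only member called (1.52, limma adjusted p = 0.0113). In that fit E13.5 mutant replicate 1, alone in its block, carries no weight. With no filter on low values, no member passed in any contrast (0 at E13.5, 0 across both ages and 0 for age), and the counts of all genes were 5 at E13.5, 0 across both ages (1980 at an unadjusted limma p under 0.05), 343 for the interaction, 31 for age and 264 for age in controls, against 139, 156, 4, 1804 and 457 in the reported fits. The cause was not tested. Foxp1 kept its calls at E13.5 and across both ages in every other alternative. With a mean of at least 1 FPKM, 81 genes passed at E13.5 and 11 for the interaction. With a mean of at least 5 FPKM, where 5 of the 8 members were tested, 54, 93, 993 and 244 passed at E13.5, across both ages, for age and for age in controls, and 1 member passed for age. Median ratio and upper quartile scaling gave 77 and 71 genes at E13.5 and 2 each for the interaction. Across both ages 75% of called genes were higher in mutants, against 51.3% after scaling to the same sum, and for age 44.6% were higher at E13.5, against 59.1%. At E12.5 the genes at 5 FPKM or more in either library that differed by at least 1 numbered 57, against 34 with a pseudocount of 5. Leaving out 1 library gave 75 (without E13.5 control replicate 2) to 192 genes at E13.5, 65 to 159 across both ages (65 without mutant replicate 1 and 79 without control replicate 1 of E13.5), 13 to 37 for the interaction, 465 to 1713 for age and 257 to 945 for age in controls. Members called were 0 to 3 for age and 0 to 3 for age in controls. Foxp4 passed for age without E13.5 mutant replicate 2 (adjusted p = 0.0473). Each single E12.5 library limits what can be said of that age.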

Other observations

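Further genes that work with these factors were examined as lists. All 11 co-repressors of FoxP proteins examined (such as Ctbp1, Gatad2b and Chd4) were tested. None passed between genotypes at E13.5 by limma, where 1.29% of all genes did. Their median difference was 0.15 (range 0.03 to 0.44), beside 0.04 for all genes. With age 1 of the 11 fell (9.26% of all genes did), the histone-binding gene Rbbp4 (-0.35, limma adjusted p = 0.0489). Of 12 Hedgehog pathway genes, which act upstream of Foxf and Foxd genes in facial mesenchyme, none passed between genotypes at E13.5 by limma. Of all genes 1.29% passed, and the median difference of the 12 was -0.09. With age, where 7.45% of all genes were called higher at E13.5 and 9.26% lower, 2 of the 12 rose, the co-receptor gene Gas1 (0.57) and the inhibitor gene Hhip (0.46), and 2 fell, the target and effector gene Gli1 (-0.49) and the inhibitor gene Sufu (-0.39), with limma adjusted p of 0.0489, 0.0218, 0.0493 and 0.0449. These calls lay close to the threshold: Gas1 was called in 8 of 15 alternatives, Hhip in 10 of 14, Gli1 in 4 of 15, Sufu in 6 of 15 and Rbbp4 in 5 of 15, and Gli1 and Sufu were lost under each of the 3 other scalings.

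Of 5 genes linked to these factors in mouse skeleton and palate, 3 were tested. Runx2, whose protein FoxP factors bind, had 68.0 and 82.0 FPKM in E13.5 mutants, against 27.1 and 22.8 FPKM in E13.5 controls, and rose (1.55, limma adjusted p = 0.0017), a call lost only when no filter was used. In the E12.5 mutant Runx2 was at 45.8 FPKM, against 16.3 FPKM in the E12.5 control. Runx2 rose with age as well (0.64, limma adjusted p = 0.0126), a call lost without either E12.5 library or with no filter. Fgf18, a growth factor gene that Foxf factors repress in mouse palate, had 9.26 and 7.59 FPKM in E13.5 mutants, against 12.7 and 21.2 FPKM in E13.5 controls, without overlap, and did not pass (-0.89, limma adjusted p = 0.105). With age Fgf18 rose (1.16, limma adjusted p = 0.0064), with 4.24 FPKM in the E12.5 mutant and 5.22 FPKM in the E12.5 control, a call lost without that control or with no filter. Sox9 did not pass between genotypes at E13.5 (0.28, limma adjusted p = 0.784), and Shh and Ihh were at most 0.16 FPKM in any library. The noncoding RNA Fendrr, beside Foxf1, had 22.5 and 24.4 FPKM in E13.5 mutants, against 28.6 and 26.9 FPKM in E13.5 controls (-0.23, limma adjusted p = 0.69), and Foxd2os, beside Foxd2, was at 0.631 to 1.34 FPKM over the 6 libraries. Both were named for their position.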
